A study of Mus musculus with 12 samples.

Results

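The 10 genes described here encode the enzymes that break down leucine, isoleucine and valine, the branched-chain amino acids (BCAAs), together with the kinase and the phosphatase that set the activity of the central enzyme of the pathway. They were chosen by gene symbol, with earlier results of these data in view, from the 23337 genes counted in mouse cardiomyocytes (CMs). Their levels and fold changes are therefore a description, and no p-value is given for any of the 10. Where the text counts how many of them the edgeR fit over all genes called, the count stands beside the share of all genes called and nothing is read from it. The RNA-seq data come from 12 samples of Cre-activated, fluorescence-sorted CMs in 4 groups of 3 biological replicates each, made to ask how loss of serum response factor (SRF) changes transcripts before and after CMs mature. In the neonatal model, AAV9-cTNT-Cre was given at postnatal day 1 (P1) to Srf-flox/flox mice (neonatal KO) or Srf-flox/+ mice (CTRL) and the cells were taken at P14. For the adult model, mice of the same 2 genotypes (adult KO and CTRL) had the virus at P60 and gave cells at P90.

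All 4 groups received the virus and carried a Cre-activated fluorescent reporter, so CTRL cells had also been exposed to Cre and had lost up to 1 of their Srf copies. Cre was driven by the cardiac troponin T promoter and given at a low dose that reached a minority of CMs in otherwise intact hearts. The mice were of mixed background, the reporter was 1 of 3 fluorescent lines per the study's methods, and the labels do not give which sample carried which. RNA was extracted per sample and amplified before library preparation.

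BCAA breakdown runs inside mitochondria in an ordered series of steps. A transaminase first removes the amino group, and the branched-chain ketoacid dehydrogenase (BCKDH) complex then commits the carbon skeleton to oxidation. BCKDH is switched off when its kinase phosphorylates the alpha subunit and switched on when a dedicated phosphatase removes that phosphate, after which separate arms for leucine, isoleucine and valine feed acetyl-CoA and succinyl-CoA to the TCA cycle. In the heart the pathway is known for its low expression and flux in failure.

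The opposed regulators of BCKDH are the members whose values lie farthest apart in neonatal KO, so the DNA just before the start of each is shown first. Of the 10 genes, 9 had a promoter sequence in the RefSeq table (GRCm38.p6, the mm10 assembly), 2 of them (Bcat2 and Bckdhb) with a pair of start sites, and Dbt had none. Each window below is the 250 bases before the annotated start, 5′ to 3′ on the strand of the gene, with capitals on every CCAAT box, read on either strand so that ATTGG is the same box reversed.

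Ppm1k (chr6:57535488-57535737, minus strand): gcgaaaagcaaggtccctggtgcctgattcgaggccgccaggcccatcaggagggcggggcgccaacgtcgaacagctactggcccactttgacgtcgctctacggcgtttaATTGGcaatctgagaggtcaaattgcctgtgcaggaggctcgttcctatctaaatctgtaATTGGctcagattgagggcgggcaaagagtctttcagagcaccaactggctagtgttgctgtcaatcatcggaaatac

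Bckdk (chr7:127903823-127904072, plus strand): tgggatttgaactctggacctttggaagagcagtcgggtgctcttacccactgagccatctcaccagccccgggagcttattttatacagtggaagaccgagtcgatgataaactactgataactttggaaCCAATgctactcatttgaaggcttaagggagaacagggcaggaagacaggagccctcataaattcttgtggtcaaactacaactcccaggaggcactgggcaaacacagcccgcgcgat

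The Ppm1k window held 2 CCAAT boxes, both in the reverse orientation, and the Bckdk window held 1 in the forward orientation. CCAAT boxes were also found before Ivd (4), Mccc1 (3), Mccc2 (3) and at 1 of the 2 Bckdhb starts (2), and 33.8% of all 32851 promoters of the same length held at least 1. None of the 11 windows of these 9 genes held the SRF-binding CArG box, searched by its consensus on both strands (1.47% of all promoters held it), nor a copy of it with 1 mismatch (18.6% of all). The motif TNAAGGTCA, searched on both strands for the estrogen-related receptors, was absent from the same windows and present in 1.14% of all promoters. No overlap between the different motifs arose in these windows, and the matches describe letters only.

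Total counts ranged from 9740389 to 23103460 per sample, and every one of the 10 genes passed the filter on low counts in each comparison, the lowest single count being 389. Levels are given as CPM, the field's unit of counts relative to library size, with library sizes adjusted by the trimmed mean of M values (TMM) over the 12 samples. Srf, the targeted gene, was at 64.3, 57.0 and 49.6 CPM in P14 CTRL and at 32.1, 27.8 and 9.68 CPM in neonatal KO, and at 71.8, 57.5 and 80.4 CPM in P90 CTRL and 33.2, 29.15 and 27.9 CPM in adult KO. Every KO sample was below every CTRL sample at both stages. The log2 fold change was -1.30 ± 0.36 (SE) in the neonatal model, which did not pass the threshold (edgeR quasi-likelihood test, adjusted p = 0.0628), and -1.23 ± 0.13 in the adult model, which did (adjusted p = 0.00347). All 7 CM markers were abundant in every sample (summed level 63160 to 96120 CPM). Y-linked genes summed to at least 100 counts in 1 of 3 samples of P14 CTRL, neonatal KO and P90 CTRL and in 0 of 3 of adult KO.

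**Figure D1:**
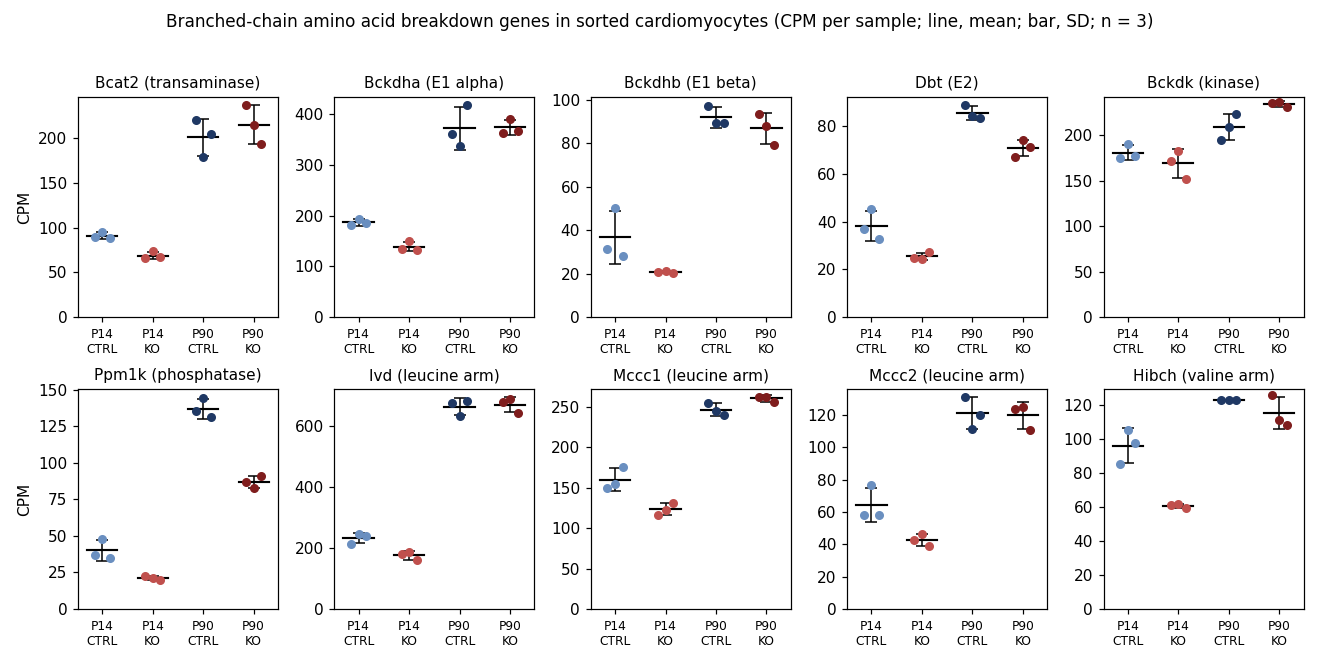
CPM of each of the 10 genes (vertical axis, from 0) in the 4 groups, 1 point per sample, with the group mean as a line and the SD as a bar (n = 3). Neonatal KO points lie below the P14 CTRL points in 9 of 10 panels, P90 points lie above P14 CTRL points in all panels, and in the Ppm1k panel the adult KO points (82.8 to 91.0 CPM) lie below the P90 CTRL points (131 to 144 CPM).

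In control CMs the pathway genes were higher at P90 than at P14. All 10 had every P90 CTRL sample above every P14 CTRL sample (21.2% of the genes tested did), and 9 of 10 were called higher at an adjusted p under 0.05 in edgeR, where 14.5% of all 12294 genes tested were called higher and 14.9% lower. The median log2 difference over the 10 was 1.09, and over all genes tested it was -0.01. Ppm1k had the largest difference among the 10 (1.79 ± 0.14), and Bckdk, the 1 that was not called, the smallest (0.23 ± 0.11). Age, injection day and interval after injection changed together between the stages and the stages were deposited as separate tables, so these cannot be told apart in the comparison of P90 with P14.

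In neonatal KO every one of the 10 genes had a lower mean than in CTRL, and in adult KO the levels stayed near CTRL apart from Ppm1k and Dbt. At P14, 9 of 10 had every KO sample below every CTRL sample (16.9% of 12546 genes did), and 6 of 10 (Bcat2, Bckdha, Dbt, Ppm1k, Mccc2 and Hibch) were called lower, beside 4.60% of all genes called lower and 3.99% called higher. The median log2 fold change was -0.51, against 0.00 over all genes tested. At P90 the fitted log2 fold change was below 0 for 6 of 10 and above 0 for 4, 2 (Ppm1k and Dbt) had every KO sample below every CTRL sample (10% of 11808 genes did), 2 (Bckdk and Mccc1) had every KO sample above every CTRL sample (11% of genes did), and 1 (Ppm1k) was called, beside 0.152% of all genes called lower and 0.390% called in either direction. In the same samples the CM markers summed to 63160 to 67040 CPM in neonatal KO and 86530 to 93980 CPM in P14 CTRL. Myh6 alone ranged from 32150 to 62800 CPM over all samples. The paper reports Myh6, Tnni3, Myl2 and Ryr2 as lower and Actn2 as higher in neonatal KO. The marker sum is therefore not a measure of CM content by itself, and the part of the markers in the neonatal values was not tested. In bulk RNA of sorted cells, fewer cells of a type and less RNA per cell cannot be told apart.

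The calls in neonatal KO, over all genes as among the 10, rested on all 3 KO samples. Without KO replicate 1, 2 or 3 the number of the 10 called fell from 6 to 0 each time, and that over all genes from 1078 to 202, 111 and 181. Without CTRL replicate 1, 2 or 3 the counts were 2, 6 and 5 of the 10, beside 767, 1004 and 931 of all genes. The fitted fold change stayed below 0 for all 10 in every one of these fits. Scaling by total counts in place of TMM, an alternative added after seeing the data, moved the median of all genes in the neonatal comparison to 0.22 and that of the 10 genes to -0.29, leaving 2 called and turning Bckdk to 0.12. Relative to the median of all genes, the median of the 10 was at -0.51 under both scalings. The split of all called genes went with it, from 577 lower and 501 higher to 319 lower and 1405 higher in neonatal KO. In the CTRL stage comparison the same scaling moved the median of all genes to -0.13 (from 1828 lower and 1779 higher to 2368 and 1314), with 8 of the 10 genes called higher, and in the interaction it moved it to 0.17 (from 123 and 105 to 60 and 199). In the adult model, Ppm1k was not called without CTRL replicate 3 (log2 fold change -0.70) or without KO replicate 2 (-0.63), and was called without any other single sample. With all 12 samples in 1 fit it was not called either (-0.67), where 3 of 12841 genes were.

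Bcat2, the mitochondrial transaminase that starts the pathway (mm10 chr7:45570153-45589710, plus strand), was at 89.2, 95.3 and 88.6 CPM in P14 CTRL and 66.0, 73.2 and 66.7 CPM in neonatal KO. Adult samples were at 219.7, 179 and 204.7 CPM in CTRL and 237.1, 215 and 193 CPM in adult KO. The neonatal groups did not overlap, with a KO mean at 75.4% of CTRL (log2 fold change -0.41 ± 0.10), whereas the adult groups did (0.08 ± 0.10). Between the CTRL groups the level at P90 was 2.21-fold that at P14. A stretch of 50 exon bases of Bcat2 is shared with 0610005C13Rik in the deposited annotation. The other transaminase gene, Bcat1, which encodes the cytosolic enzyme, was at 0.585 CPM or less in every sample and did not enter the tests.

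The BCKDH complex is built of E1 heterotetramers of alpha and beta subunits around a core of E2. Bckdha, the alpha subunit that carries the regulatory phosphate (chr7:25629852-25658761, minus strand), was at 181, 193 and 186 CPM in P14 CTRL and 134, 149.8 and 132 CPM in neonatal KO. Its P90 values were 361, 337 and 419 CPM in CTRL and 362.5, 391.5 and 368 CPM in adult KO. The alpha subunit was thus lower in neonatal KO without overlap (-0.43 ± 0.10) and overlapped at P90 (-0.01 ± 0.10).

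Bckdhb, the beta subunit (chr9:83948781-84124240, plus strand), was at 31.5, 50.4 and 28.0 CPM in P14 CTRL and 20.7, 21.4 and 20.1 CPM in neonatal KO. At P90 the values were 97.4, 89.2 and 89.3 CPM in CTRL and 93.6, 87.8 and 79.15 CPM in adult KO. CTRL replicate 2 stood above the other P14 CTRL samples, in a group at 36.6 ± 12.1 CPM (SD). Its neonatal log2 fold change was -0.83 ± 0.22, and -0.52 without that sample. The adult value was -0.10 ± 0.09, with overlap.

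Dbt, the E2 core subunit that transfers the acyl group to coenzyme A (chr3:116513079-116549981, plus strand), was at 37.1, 45.2 and 32.6 CPM in P14 CTRL and 24.9, 24.2 and 27.1 CPM in neonatal KO. The P90 values were 89.0, 84.35 and 83.5 CPM in CTRL and 67.2, 74.2 and 71.3 CPM in adult KO. Dbt, like Ppm1k, had every KO sample below every CTRL sample at both stages. Of all genes tested, 16.9% did so at P14 and 10% at P90, and the share that did so at both was not computed. The log2 fold changes were -0.60 ± 0.15 in neonatal KO and -0.29 ± 0.09 in adult KO.

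The kinase and the phosphatase of the complex differed in their values. Bckdk, the kinase that phosphorylates and inactivates BCKDH (chr7:127904073-127909664, plus strand), was at 175.5, 190.1 and 177 CPM in P14 CTRL and 172, 183 and 152 CPM in neonatal KO. At P90 it was at 195, 209 and 223 CPM in CTRL and 236, 237 and 231 CPM in adult KO. It was the 1 member whose groups overlapped at P14 (log2 fold change -0.10 ± 0.11), and at P90 every KO sample was higher than every CTRL sample (0.15 ± 0.09).

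Ppm1k, the mitochondrial phosphatase that reactivates BCKDH (chr6:57506502-57535426, minus strand), was at 37.1, 48.2 and 35.0 CPM in P14 CTRL and 22.9, 21.0 and 19.9 CPM in neonatal KO. At P90 it was at 135, 144 and 131 CPM in CTRL and 87.0, 82.8 and 91.0 CPM in adult KO. Neonatal KO was at 53.0% of CTRL and adult KO at 63.5% of CTRL, with no overlap at either stage. The log2 fold changes were -0.92 ± 0.15 and -0.67 ± 0.09. The difference between the stages, neonatal minus adult, was -0.24 ± 0.17. The mean level in adult KO (86.9 ± 4.07 CPM, SD) lay above that in P14 CTRL (40.1 ± 7.08 CPM).

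The ratio of Ppm1k to Bckdk CPM, taken within each sample, is free of library scaling. It was 0.212, 0.254 and 0.197 in P14 CTRL and 0.133, 0.115 and 0.131 in neonatal KO. At P90 it was 0.694, 0.688 and 0.588 in CTRL and 0.368, 0.350 and 0.394 in adult KO. No sample of one group overlapped with the other at either stage, and the phosphatase was the less abundant transcript of the pair in all 12 samples. Ppm1k alone had no overlap at either stage, so that of the ratio is not separate support. The share of other gene pairs without overlap was not computed. The group means were 0.221 ± 0.029, 0.126 ± 0.010, 0.657 ± 0.059 and 0.371 ± 0.022 (SD, n = 3), so that the ratio in P90 CTRL was the highest and that in neonatal KO the lowest.

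**Figure D2:**
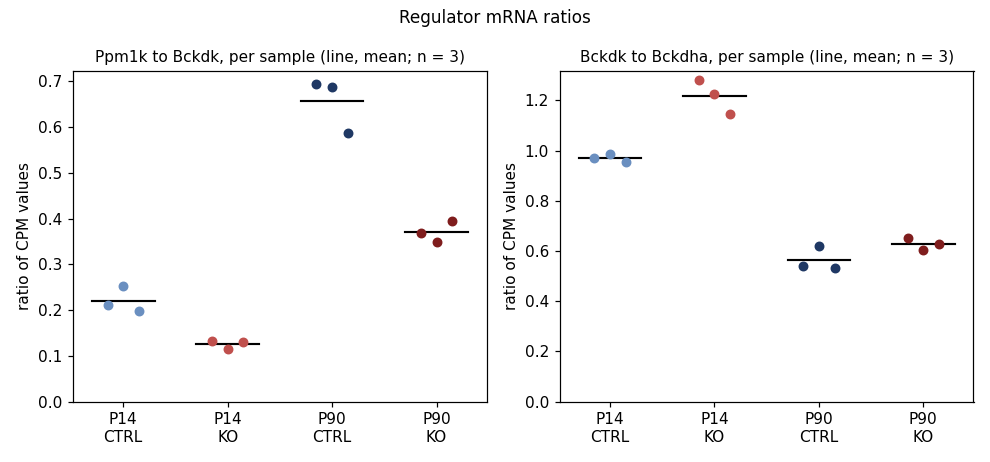
Ratios of CPM values within each sample (vertical axes, from 0), for Ppm1k to Bckdk (left) and Bckdk to Bckdha (right), with 1 point per sample and the group mean as a line. On the left each KO group lies below its CTRL group, and on the right the neonatal KO points (1.15 to 1.28) lie above the P14 CTRL points (0.955 to 0.985).

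The ratio of the kinase to its substrate subunit was higher in neonatal KO, where Bckdk was at 93.4% of CTRL and Bckdha at 74.4%. The ratio of Bckdk to Bckdha CPM was 0.971, 0.985 and 0.955 in P14 CTRL and 1.28, 1.22 and 1.15 in neonatal KO, without overlap. At P90 it was 0.539, 0.621 and 0.533 in CTRL and 0.652, 0.605 and 0.628 in adult KO, where the groups overlapped. Across the CTRL groups the ratio was lower at P90 (0.564 ± 0.049) than at P14 (0.970 ± 0.015), since Bckdha differed 1.996-fold between the stages and Bckdk 1.16-fold.

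Past BCKDH, leucine carbon passes through isovaleryl-CoA dehydrogenase and methylcrotonyl-CoA carboxylase. Ivd, the dehydrogenase (chr2:118862000-118881357, plus strand), was at 212, 244 and 239 CPM in P14 CTRL and 181, 187 and 160.1 CPM in neonatal KO. Its P90 values were 675, 630.1 and 680.5 CPM in CTRL and 678, 686 and 642 CPM in adult KO. Ivd was lower in all neonatal KO samples (-0.40 ± 0.11), overlapped at P90 (0.00 ± 0.08), and was 2.85-fold higher in P90 CTRL than in P14 CTRL.

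Mccc1, the biotin-carrying alpha subunit of the carboxylase (chr3:35959306-36000678, minus strand), was at 149, 154 and 175.5 CPM in P14 CTRL and 116, 123 and 131.5 CPM in neonatal KO. The P90 samples were at 255, 244 and 239 CPM in CTRL and 262.5, 262.4 and 255.5 CPM in adult KO. Its neonatal groups did not overlap (-0.37 ± 0.11), and its adult values were slightly above CTRL (0.07 ± 0.08). In the deposited annotation 198 of its exon bases are shared with A330050B17Rik.

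Mccc2, the beta subunit of the carboxylase (chr13:99948532-100015639, minus strand), was at 58.3, 76.65 and 58.2 CPM in P14 CTRL and 43.0, 46.4 and 38.8 CPM in neonatal KO. At P90 the values were 131, 112 and 120.2 CPM in CTRL and 124, 125 and 110.5 CPM in adult KO. The neonatal groups did not overlap (-0.59 ± 0.14) and the adult groups did (-0.03 ± 0.09).

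Hibch, the hydrolase that frees 3-hydroxyisobutyrate from coenzyme A in the valine arm (chr1:52845046-52920860, plus strand), was at 85.1, 105 and 97.5 CPM in P14 CTRL and 61.1, 61.7 and 59.3 CPM in neonatal KO. Its values at P90 were 122.8, 123.0 and 122.7 CPM in CTRL and 125.8, 111 and 108 CPM in adult KO. After Ppm1k and Bckdhb it had the largest neonatal log2 fold change of the 10 (-0.66 ± 0.11), although its difference between CTRL stages was, after Bckdk, the smallest (0.38 ± 0.11). The adult groups overlapped (-0.11 ± 0.09).

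**Figure D3:**
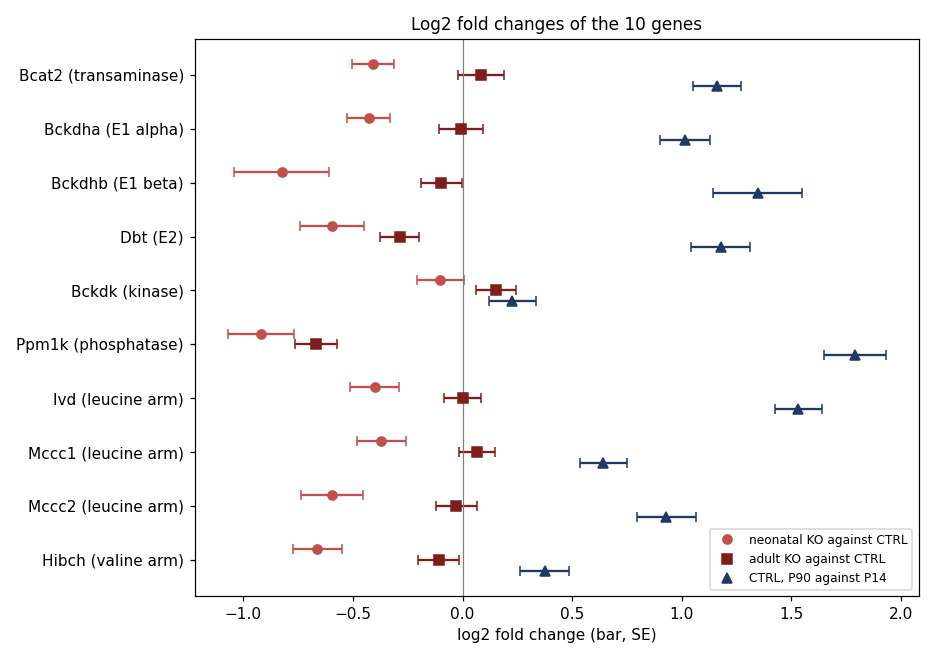
Log2 fold changes of the 10 genes (horizontal axis, bar = SE) for neonatal KO against CTRL, adult KO against CTRL, and CTRL at P90 against P14. Neonatal values lie between -0.92 and -0.10, adult values lie between -0.29 and 0.15 apart from Ppm1k at -0.67, and the CTRL stage differences lie between 0.23 and 1.79. The KO comparisons and the stage comparison share CTRL samples.

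The difference between the KO effects at the stages, neonatal minus adult, was negative for all 10 genes, from -0.72 for Bckdhb to -0.24 for Ppm1k and Bckdk. The median over the 10 was -0.42, and over all genes tested it was -0.01. The edgeR interaction called 0 of the 10, beside 228 of 12841 genes. DESeq2 called 7 of the 10 in the interaction, beside 897 of 10129 genes. Of the 36 tested genes of the wider pathway list, 7 were called with a lower effect at P14 in the edgeR interaction, beside 0.958% of 12841 genes.

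Per kilobase of exon, which allows levels to be compared between genes, Ivd and Bckdha were the most abundant of the 10 and Ppm1k the least in all 4 groups. In P14 CTRL, Ivd (112 ± 8.35 CPM per kilobase) and Bckdha (105 ± 3.45) overlapped, followed by Bckdk (63.35 ± 2.77), Hibch (56.3 ± 6.01) and Mccc1 (53.5 ± 4.73), each overlapping its neighbour. Bcat2 (41.3 ± 1.69) stood apart on both sides, Mccc2 (30.3 ± 5.00) and Bckdhb (26.2 ± 8.625) overlapped, and Dbt (11.6 ± 1.93) and Ppm1k (7.21 ± 1.27) closed the order without overlap. In P90 CTRL, Ivd (320.1 ± 13.3) stood above Bckdha (210.0 ± 23.8), Bcat2 (91.25 ± 9.34) had moved to the third place, where it overlapped Mccc1 (82.5 ± 2.65), and Dbt (26.0 ± 0.899) and Ppm1k (24.6 ± 1.18) overlapped. In adult KO, Ppm1k (15.6 ± 0.732) and Dbt (21.5 ± 1.06) no longer overlapped. The subunits of the complex were thus read at unequal mRNA levels, with Dbt at 0.110 ± 0.016 and Bckdhb at 0.248 ± 0.074 of Bckdha per kilobase in P14 CTRL.

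By the smallest difference in pattern over the 12 samples, taken as the root mean square difference of log2(CPM + 1) deviations from the CTRL mean of the stage among 8788 genes, Klhl23 (0.123), Fv1 (0.129) and 4933403F05Rik (0.146) were nearest to Ppm1k. Bckdha had Ivd as its nearest gene (0.070), the only case in which a member was among the 3 nearest of another. Hibch lay nearest to Grsf1 (0.034), Immt (0.045) and Suclg2 (0.049), Bckdk to Adipor1 (0.046), Bcat2 to Ict1 (0.052), Ivd to Txnrd2 (0.052) and Bckdhb to Mtcp1 (0.072). For Dbt the nearest was Ube3a (0.085), for Mccc1 Mterfd2 (0.042) and for Mccc2 Adssl1 (0.054). The samples used for this measure are the same ones described above.

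The other genes of the pathway were taken from a list of 38, of which 36 passed the filter on low counts and entered the tests (Bcat1 and the carrier Slc43a1 did not). In neonatal KO 15 of 36 were lower and 2 higher at an adjusted p under 0.05 in edgeR. Over all genes tested, 4.60% were called lower and 3.99% higher. In adult KO edgeR called none of the 36, beside 0.390% of 11808 genes called in either direction. Of the 36, 29 had a lower mean in neonatal KO, with a median log2 fold change of -0.48, and 19 had a lower mean in adult KO, with a median of 0.00. The list, like the 10 genes, was drawn up with earlier results known, so its counts are not independent evidence of a direction.

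The shared subunit and the isoleucine and valine arms held most of the calls. Dld, the E3 dihydrolipoamide dehydrogenase that BCKDH shares with the pyruvate and 2-oxoglutarate dehydrogenase complexes, was at 589, 856 and 635 CPM in P14 CTRL and 340.4, 320.5 and 303 CPM in neonatal KO. It fell by 1.11 ± 0.16 on the log2 scale (edgeR, adjusted p = 0.0106), and was at -0.09 ± 0.08 in adult KO (adjusted p = 0.644). All 10 listed genes on the other isoleucine and valine steps had a log2 fold change below 0 in neonatal KO, and 8 were called lower. Among the 8 were Aldh6a1, which ends the valine arm (-0.96 ± 0.16, adjusted p = 0.0153 in edgeR), Hibadh, the 3-hydroxyisobutyrate dehydrogenase after Hibch (-0.89 ± 0.13, adjusted p = 0.0116 in edgeR), and the enoyl-CoA hydratase Echs1 (-0.82 ± 0.11, adjusted p = 0.00972 in edgeR). The other 5 were Hadhb (-0.75), Hsd17b10 (-0.59), Hadha (-0.56), Acaa2 (-0.53) and Acat1 (-0.51), several of which also serve fatty acid oxidation. Acadsb and Acad8, the dehydrogenases particular to these arms, were at -0.48 and -0.24 and did not pass.

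Auh, the methylglutaconyl-CoA hydratase of the leucine arm, did not pass in edgeR (-0.56 ± 0.15, adjusted p = 0.0549). All 6 genes on the route from propionyl-CoA to succinyl-CoA had a log2 fold change below 0 in neonatal KO, and 2 were called lower. The 2 were Mcee, the methylmalonyl-CoA epimerase (-0.99 ± 0.21, adjusted p = 0.0277 in edgeR), and Pcca, the biotin-carrying subunit of propionyl-CoA carboxylase (-0.65 ± 0.11, adjusted p = 0.0149 in edgeR). Among 9 genes for cofactors and electron acceptors 6 had a value below 0, and 4 were called lower. The 4 were Etfa (-0.69), Etfb (-0.75) and Etfdh (-0.70), which take electrons from Ivd and the other acyl-CoA dehydrogenases, and the lipoate synthase Lias (-0.48).

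The 2 genes called higher in neonatal KO both handle biotin, the cofactor of Mccc1 and Pcca. Hlcs, which attaches biotin to carboxylases, was at 7.27, 6.58 and 7.10 CPM in P14 CTRL and 12.9, 13.15 and 11.3 CPM in neonatal KO, a log2 fold change of 0.83 ± 0.15 (edgeR, adjusted p = 0.0181). Btd, which recycles biotin, was at 10.6, 11.6 and 11.6 CPM in CTRL and 17.3, 22.0 and 21.4 CPM in neonatal KO (0.84 ± 0.14, edgeR adjusted p = 0.0157). Neither pair of groups overlapped, and in adult KO Hlcs was at -0.02 and Btd at 0.32, not called.

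None of the 5 tested BCAA carriers passed in neonatal KO in edgeR, and 4 of them had a higher mean. Slc25a44, the carrier that brings BCAAs into mitochondria, was at 29.6, 30.1 and 35.6 CPM in P14 CTRL and 38.8, 36.5 and 33.8 CPM in neonatal KO, with overlap (0.19 ± 0.12, edgeR adjusted p = 0.368). Klf15, a transcription factor known to drive BCAA catabolic genes in heart and muscle, was at 53.2, 98.9 and 40.6 CPM in P14 CTRL and 56.3, 57.4 and 42.1 CPM in neonatal KO (-0.31 ± 0.30, edgeR adjusted p = 0.575). Its value rested on CTRL replicate 2, without which it was 0.15. In adult KO, Klf15 was at 0.12 ± 0.13 (edgeR adjusted p = 0.69).

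Leaving out a KO sample lowered the neonatal count of 17 wider-pathway calls to 7 without replicate 1, to 1 without replicate 2 and to 3 without replicate 3, and Echs1 was the 1 gene called in all 3 of these fits. For adult KO, where edgeR called 0 of 36, 4 genes had an unadjusted p under 0.05 and DESeq2 called 1, the plasma membrane carrier Slc43a2 (31.2, 27.3 and 35.45 CPM in CTRL and 23.5, 23.8 and 19.4 CPM in adult KO).

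**Figure D4:**
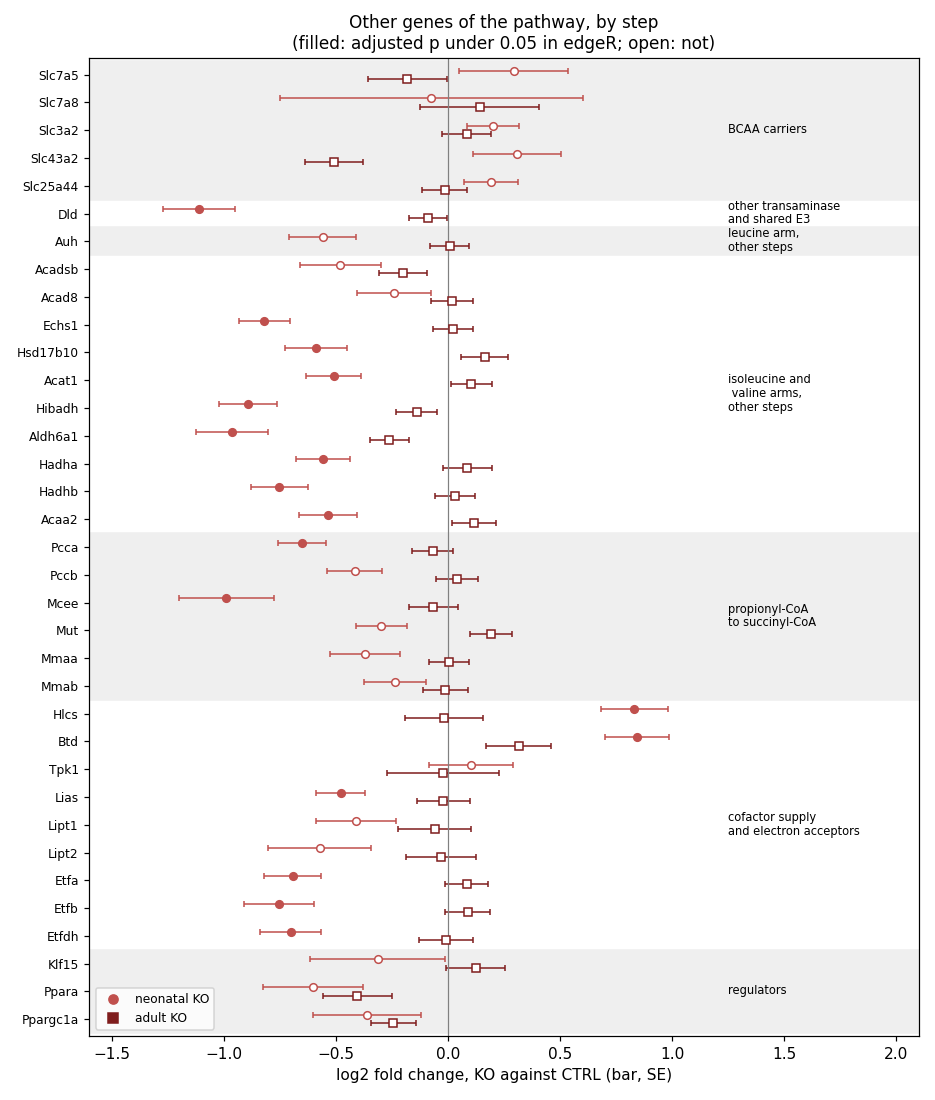
Log2 fold changes (horizontal axis, bar = SE) of 35 of the 36 tested genes of the wider pathway, ordered by step, in neonatal KO (circles) and adult KO (squares), with filled symbols where the adjusted p was under 0.05 in edgeR. In neonatal KO 15 filled symbols lie below 0 and 2 above it, and in adult KO no symbol is filled.

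In control CMs the wider pathway differed less between P90 and P14 than the 10 genes did in median (0.35 against 1.09), and that gap was not tested. In edgeR 13 of 36 were called higher at P90, beside 14.5% of all genes called higher and 14.9% called lower. Among the 13 were Acadsb (1.58 ± 0.19, edgeR adjusted p = 0.000578), Aldh6a1 (1.42 ± 0.12, edgeR adjusted p = 0.000145), Mmab (1.28), Pcca (1.07) and the carrier Slc7a5 (1.00 ± 0.24, edgeR adjusted p = 0.0142). The rest were Mut (0.79), Auh (0.64), Lipt2 (0.64), Echs1 (0.58), Mmaa (0.57), Etfa (0.45), Hibadh (0.43) and Hadhb (0.33). Acaa2 was the 1 gene called lower (-0.46 ± 0.11, edgeR adjusted p = 0.0129). Dld did not pass (0.02 ± 0.14, edgeR adjusted p = 0.917). The count of 14 was 9, 17 and 13 without P14 CTRL replicates 1, 2 and 3, and 8, 9 and 7 without P90 CTRL replicates 1, 2 and 3. Over all genes the calls went from 3607 to 2300, 4768 and 3094 without the P14 CTRL samples. Without the P90 CTRL samples they went to 2067, 2480 and 2136.

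The pyruvate dehydrogenase complex, which is built and switched in the same manner as BCKDH, gave a comparison for the regulators. In neonatal KO 10 of its 11 listed genes had a log2 fold change below 0. Of the 11, 5 were called lower, beside 4.60% of all genes called lower. The 5 were the core genes Pdhx (-0.89), Dlat (-0.78), Pdhb (-0.73) and Pdha1 (-0.69) and the kinase Pdk2 (-0.67 ± 0.12, edgeR adjusted p = 0.0167). Pdk2 was at 699.6, 728 and 716.5 CPM in P14 CTRL and 493, 464 and 392 CPM in neonatal KO. The phosphatases Pdp1 (-0.15 ± 0.30) and Pdp2 (-1.08 ± 0.35), the phosphatase regulatory subunit Pdpr (-0.29 ± 0.16) and the kinases Pdk1 (-0.26 ± 0.13), Pdk3 (0.53 ± 0.19) and Pdk4 (-0.04 ± 0.25) did not pass, the edgeR adjusted p lying between 0.0937 for Pdp2 and 0.945 for Pdk4. None of the 11 was called in adult KO, where 0.390% of all genes were called in either direction. Between CTRL stages Pdk1 (0.89), Pdk2 (0.53), Pdp2 (1.33) and Pdpr (0.70) were higher at P90 and Pdk3 (-2.49) and Pdk4 (-1.28) lower, all called in edgeR, and the size of each exceeded the 0.23 ± 0.11 of Bckdk, a gap that was not tested.

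Markers of other cell types and of the CMs themselves moved with some of these groups. The summed level of 6 fibroblast markers was 106 to 317 CPM in P14 CTRL, 191 to 336 CPM in neonatal KO and 48.5 to 68.4 CPM in P90 samples, and that of 5 endothelial markers was 144 to 331, 205 to 299 and 142 to 235 CPM. The 5 mural cell markers summed to 79.5 to 170.5 CPM in P14 CTRL and 190.4 to 208 CPM in neonatal KO, without overlap, and to 66.9 to 102 CPM at P90. Atrial markers summed to 56.9 to 505 CPM in P14 CTRL and to 302 to 1193 CPM in neonatal KO. Nppa alone reached 1171 CPM, and Sln, Myl7, Myl4 and Bmp10 were each at 64.7 CPM or less in every sample. The paper uses Nppa as a cardiac stress marker and reports the immature isoforms Myl7 and Myl4 as higher in neonatal KO. The sum is therefore not a measure of atrial cells by itself. The 5 myeloid markers summed to 7.73 CPM or less in every sample, and of 4 erythroid markers counted, 2 were at 0 throughout and the sum was 18.5 CPM or less. P14 CTRL replicate 2 had the lowest fibroblast, endothelial and mural sums of that group. It also had the group's highest value for each of the 10 genes except Mccc1, and for Dld and Klf15. Without that sample the median neonatal log2 fold change of the 10 was -0.42, beside -0.51 with all samples. The part of these markers in the results on the 10 genes was not tested.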

How the data were processed

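The authors deposited raw counts of reads per gene in 1 table for each stage, made from mm10 alignments (per the labels, base calling with CASAVA 1.8, alignment with STAR 2.5.3a and counting with featureCounts of Subread 1.5.2). Libraries were prepared from 10 ng of total RNA with SMART-Seq v4 and Nextera XT. The strand setting and the treatment of multi-mapping reads are not given in the sources used here. From the counts, CPM were computed with TMM factors over all 12 samples. Fold changes and their SE came from edgeR 4.0.16 (quasi-likelihood F-test, filterByExpr, TMM, Benjamini-Hochberg over all genes tested, adjusted p under 0.05) in R 4.3.3. Each KO effect was fitted on the 6 samples of its stage, the CTRL stage difference on the 6 CTRL samples, and the interaction on all 12. The scripts were tested on simulated counts. The values of 1 gene of the wider list are not reported here, and it stays in the counts.

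The 10 genes, the other gene lists and the tests were chosen with earlier results of these data known. Named genes were the 10, every wider-pathway gene called plus Klf15, Dld, Bcat1 and Slc25a44, the pyruvate dehydrogenase kinases and phosphatases, Srf, and for each member the 3 genes of nearest pattern with a mean of at least 5 CPM in all groups. Slc43a2 and the core pyruvate dehydrogenase genes were added after their values were seen. Alternatives were DESeq2 1.42.0, other size factors, no filter, gene length offsets, the replicate number as a block, all 12 samples in 1 fit, and leaving out each sample. Total counts ranged from 9740389 to 23103460 per sample. Amplified reads are not independent molecules. The labels call the samples biological replicates and do not say how many animals went into each. The p-values therefore set group differences against the spread between these samples, whatever number of animals that covers.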

Additional observations from a re-analysis of the deposited data

Results flagged for a closer look

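In 7 genes of the wider pathway the effect of KO was not the same at P14 and P90 by the edgeR interaction test (neonatal minus adult log2 fold change, 3 samples per group), and each was lower in neonatal KO. Dld, the shared E3 subunit, had a difference of -1.01 ± 0.18 (SE, adjusted p = 0.021), and its CPM were 340.4, 320.5 and 303 in neonatal KO against 646.5, 667 and 665 in adult KO. Echs1, the enoyl-CoA hydratase, followed at -0.83 ± 0.14 (adjusted p = 0.021). The trifunctional protein subunit Hadhb was at -0.77 ± 0.15 (adjusted p = 0.0252) and the valine enzyme Hibadh at -0.74 ± 0.15 (adjusted p = 0.0339). Both subunits of the electron transfer flavoprotein were among them, Etfa at -0.77 ± 0.16 (adjusted p = 0.0322) and Etfb at -0.83 ± 0.19 (adjusted p = 0.0465). Pcca, the propionyl-CoA carboxylase subunit, was at -0.57 ± 0.13 (adjusted p = 0.0468).

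In all 7 every neonatal KO sample was below every P14 CTRL sample, beside 16.9% of 12546 genes. The 7 were picked from the same samples, so this is not separate support. Leaving out P90 CTRL replicate 3, P90 KO replicate 1 or P90 KO replicate 2 left 0 of the 7 called. Over all genes the interaction calls fell from 228 to 5, 17 and 4 in these fits. Under total-count scaling 6 of the 7 were called, all but Pcca. Groups of 3 samples were not examined for outliers.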

How the results depend on the processing

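The count of wider-pathway genes called in neonatal KO was 17 and lay between 1 and 16 without 1 sample, and between 12 and 20 in the other alternatives. In adult KO it was 0, with 1 in DESeq2 (Slc43a2), 2 without the filter and 2 with the replicate block (Ppara and Slc43a2 in both), and 0 without any 1 sample. In the interaction it was 7, with 19 in DESeq2, 11 without the filter, 14 with the replicate block and 0 to 12 without 1 sample. Over all genes the interaction calls were, in the same order, 228, 897, 474, 687 and 4 to 377. Between CTRL stages it was 14, and 7 to 17 without 1 sample. The cause of these changes was not tested. Replicate numbers were checked as pairs by the correlation of same-numbered deviations from the group means (0.043, 0.219 and 0.338 at P14, 0.340, 0.066 and 0.129 at P90). Not all passed 0.1, and the main fits did not pair samples by number. With 3 samples per group this check cannot show whether the samples were paired. Each P14 CTRL sample correlated best with its own number, and P90 CTRL replicate 2 with KO replicate 3. With the replicate block 7 of the 10 BCAA genes were called in neonatal KO (1529 of all genes), 1 in adult KO (655) and 9 between CTRL stages (3139). In neonatal KO, DESeq2 called 9 of the 10 (1798 of 12269 genes) and so did the fit of all 12 samples (2088 of 12841).

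Values near 0 changed sign in some alternatives, and none of these was called. Among the 10, the adult values did so in 4 alternatives for Bckdha, 8 for Ivd and 3 for Mccc2, and the neonatal value of Bckdk with total counts. Other named genes follow. With total counts, Pdk4 (0.18) and Pdp1 (0.059) in neonatal KO, Slc25a44 in adult KO (0.015) and Dld between CTRL stages (-0.081) did so, as did Slc25a44 in adult KO with length offsets (0.0096) and with length offsets and the replicate block (0.0077). Without 1 sample the ranges were -0.56 to 0.15 for Klf15, -0.25 to 0.24 for Pdk4 and -0.47 to 0.18 for Pdp1 in neonatal KO, -0.070 to 0.017 for Slc25a44 in adult KO, and -0.070 to 0.19 for Dld between CTRL stages. Calls rest on 3 samples per group, and low genes such as Bcat1 did not pass the filter at these depths.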
